A study of Mus musculus with 6 samples.

Results

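Genes that hold at least 5 binding sites of UTX were examined. UTX, encoded by Kdm6a, is a demethylase of histone H3 lysine 27, and its sites were mapped by CUT&Tag, in which an antibody directs a transposase to cut and tag the DNA beside the bound protein. A site counted when its deposited WT concentration was above that of UTX-deficient cells, and a gene was kept when its symbol was assigned to 5 or more such sites. The rule kept 54 of 5221 genes (1.03%), with 306 of the 6716 sites that were higher in WT and carry a symbol. The number of sites and the direction between genotypes are thus fixed by the rule and are given as a description.

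The cells were Ly108 positive, CXCR6 negative CD8 T cells sorted from pancreatic lymph nodes. One group of 3 samples came from WT NY8.3 mice, which carry a transgenic T cell receptor on the NOD background, and the other group of 3 from NY8.3 mice that lack UTX in their T cells. The labels give no age, no driver of the deletion and no word on pooling or separate animals, so the samples of a group may be technical replicates. The deposited table gives a mean per group for 6739 sites of 401 bp that differed between genotypes, and reads per library were recovered from these means. The libraries carry no replicate number and are ranked by depth: relative to a mean of 1, the WT depths were 1.28, 0.916 and 0.792 and the UTX-deficient depths 1.93, 1.07 and 0.00577, so that the last library was near-empty and held 0 reads at each of the 306 sites. Of 8 marker genes of CD8 T cells, 7 had a site higher in WT. The 8 include CD3 chains and Lck, which all T cells share, so the count does not tell CD8 from CD4 cells. It was 0 of 7 for B cells, 2 of 8 for myeloid and dendritic cells and 1 of 5 for CD4 and regulatory T cells. For natural killer and innate lymphoid cells it was 2 of 5, and for pancreatic, stromal and endothelial cells 1 of 7. These counts were not set against a share over all genes, and none of these markers had 5 sites.

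UTX acts within the complexes of the H3 lysine 4 methyltransferases MLL3 and MLL4, which work at enhancers, and it removes a methyl mark that keeps chromatin silent. Genes of cell identity often have many enhancers, spread through introns and through the DNA around the gene. Progenitor CD8 T cells, which renew themselves and give rise to effector cells, depend on factors such as BACH2, TCF-1 and LEF-1.

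In genes with a single site, that site mostly lay at the promoter, whereas the sites of the 54 genes mostly lay elsewhere in the gene or at a distance from it. A promoter was taken as the 250 bases before to 50 after a start listed by RefSeq (GRCm38.p6, the assembly of mm10) or the 5′ end of the gene, and 43 of the 54 genes could be placed in this way. In these genes 29 of 238 sites (12.2%) overlapped an own promoter, against 2506 of 3461 sites (72.4%) in genes with 1 site. The share was 34.7%, 20.5% and 16.3% in genes with 2, 3 and 4 sites. Counted by gene, 26 of the 43 (60.5%) had a site at an own promoter, against 72.4% of genes with 1 site and 58.1% of genes with 4. Of the 26, only 3 had more than 1 such site, so the share of sites falls by count alone as the number of sites per gene rises. The fall in this share is thus in large part set by the rule. The shares were not tested against each other.

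**Figure D1:**
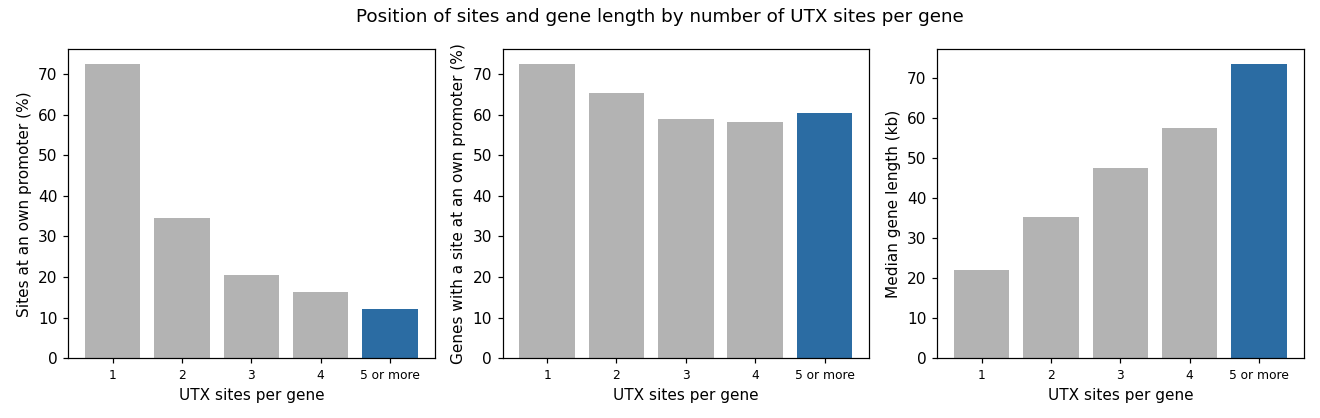
Genes by the number of UTX sites assigned to them (x axis: 1, 2, 3, 4, and 5 or more). The panels show the share of sites at an own promoter (%), the share of genes with such a site (%) and the median gene length (kb). The share of sites fell from 72.4% to 12.2%, in large part because sites per gene rise while few genes have more than 1 site at an own promoter. The share of genes ranged from 58.1% to 72.4%, and median length went from 22 to 73.4 kb.

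The 54 genes were longer than the others. Their median length was 73.4 kb, against 22 kb for genes with 1 site and 57.6 kb for genes with 4, and it moved with the number of sites. The part of length in the number of sites was not tested. Length was not shared by all of them: it reached from 1.2 kb at Rplp1, a ribosomal stalk protein gene, to 597.4 kb at Foxp1. Of the 306 sites, 183 (59.8%) overlapped the assigned gene, against 83.1% in genes with 1 site. Of the 123 outside, 63 lay upstream, 32 downstream and 28 at genes with no listed strand.

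Promoter sites were the strongest site of some genes and among the weakest of others, and the reference sequences of 3 promoters of each kind are shown. They are the genes with the largest and the smallest difference between promoter and other sites, among those with at least 200 of the 300 promoter bases under the site. Each is printed 5′ to 3′ on the strand of the gene, from RefSeq on GRCm38.p6, and capitals mark the motifs searched, ACAAAG (TCF/LEF), CCGGAA (ETS), TGTGGT (RUNX), GGGCGG (KLF/SP) and TGANTCA (AP-1), on either strand and with overlaps allowed. The promoter site was the strongest at Tpst2, Klf13 and Runx3.
Tpst2, chr5:112276495-112276794, plus strand: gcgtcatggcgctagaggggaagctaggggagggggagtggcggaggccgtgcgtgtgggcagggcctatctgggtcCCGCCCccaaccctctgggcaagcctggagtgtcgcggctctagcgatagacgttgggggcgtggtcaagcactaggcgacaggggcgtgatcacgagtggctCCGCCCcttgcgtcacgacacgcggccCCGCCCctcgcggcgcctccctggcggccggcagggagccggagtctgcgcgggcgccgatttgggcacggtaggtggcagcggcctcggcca
Klf13, chr7:63938866-63939165, minus strand: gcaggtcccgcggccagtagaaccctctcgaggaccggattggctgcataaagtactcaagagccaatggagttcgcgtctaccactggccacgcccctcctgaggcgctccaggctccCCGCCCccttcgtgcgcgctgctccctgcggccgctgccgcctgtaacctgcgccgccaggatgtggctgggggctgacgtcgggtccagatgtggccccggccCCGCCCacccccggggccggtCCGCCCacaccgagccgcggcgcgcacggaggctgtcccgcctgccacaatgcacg
Runx3, chr4:135120395-135120694, plus strand: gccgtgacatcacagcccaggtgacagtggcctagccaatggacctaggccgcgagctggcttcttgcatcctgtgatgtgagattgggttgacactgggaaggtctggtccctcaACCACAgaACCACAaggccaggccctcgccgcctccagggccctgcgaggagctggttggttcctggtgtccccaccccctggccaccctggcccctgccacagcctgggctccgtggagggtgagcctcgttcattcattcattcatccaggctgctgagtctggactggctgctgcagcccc
The promoter site was among the weaker at Rps6ka1, Jak1 and Smad3.
Rps6ka1, chr4:133887748-133888047, minus strand: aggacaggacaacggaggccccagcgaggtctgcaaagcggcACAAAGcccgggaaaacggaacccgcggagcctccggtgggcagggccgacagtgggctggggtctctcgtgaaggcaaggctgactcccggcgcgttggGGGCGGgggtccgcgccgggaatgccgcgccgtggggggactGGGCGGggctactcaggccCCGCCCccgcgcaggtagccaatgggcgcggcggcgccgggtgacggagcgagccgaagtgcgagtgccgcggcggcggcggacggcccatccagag
Jak1, chr4:101265174-101265473, minus strand: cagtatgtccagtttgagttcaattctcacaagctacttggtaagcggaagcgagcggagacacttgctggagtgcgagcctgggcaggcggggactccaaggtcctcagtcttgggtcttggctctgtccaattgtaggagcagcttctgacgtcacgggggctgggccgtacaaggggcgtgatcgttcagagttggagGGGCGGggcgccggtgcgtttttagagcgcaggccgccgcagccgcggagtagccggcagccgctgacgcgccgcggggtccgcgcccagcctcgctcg
Smad3, chr9:63757945-63758244, minus strand: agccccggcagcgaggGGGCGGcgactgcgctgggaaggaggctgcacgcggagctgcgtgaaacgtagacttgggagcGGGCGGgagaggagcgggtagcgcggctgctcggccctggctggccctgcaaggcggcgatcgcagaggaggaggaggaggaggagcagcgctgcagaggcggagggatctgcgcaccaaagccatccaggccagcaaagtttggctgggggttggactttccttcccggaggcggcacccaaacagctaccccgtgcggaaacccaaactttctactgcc

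At Tpst2, which encodes a tyrosylprotein sulfotransferase, the promoter site held 338, 239 and 188 WT reads and, without UTX, 11, 18 and 0, from the deepest to the shallowest. Normalized, this was 254.2 ± 14.7 (SD, n = 3 WT libraries). It had the highest WT concentration of all 306 sites, 7.99 (log2 of mean normalized reads, the authors' group mean, as are all concentrations given here), and the other 4 sites of the gene had a mean of 5.33. At Klf13, a Kruppel-like factor gene, the promoter site held 287, 243 and 176 WT reads and, without UTX, 6, 21 and 0. Normalized, this was 237.3 ± 24.2 (SD, n = 3). Its concentration was 7.89, against a mean of 5.38 over the other 6 sites. At Runx3, a factor that sets the CD8 lineage and its cytotoxic genes, the promoter site held 172, 137 and 86 WT reads and, without UTX, 4, 7 and 0, at a concentration of 7.03 against 5.29 for the rest. The printed Runx3 promoter held 2 RUNX motifs and no KLF/SP motif, while those of Tpst2 and Klf13 each held 3 KLF/SP motifs.

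At Jak1, the kinase gene of many cytokine receptors, the promoter site had the lowest group value of 5, with 27, 18 and 10 WT reads and, without UTX, 2, 1 and 0. The strongest Jak1 site, inside the gene and 35.6 kb from its nearer end, held 79, 74 and 40 WT reads and, without UTX, 6, 13 and 0. At Smad3, a transducer of TGF-beta signals, the promoter site held 19, 25 and 18 WT reads and, without UTX, 2, 2 and 0, and a site 37.0 kb inside the gene held 74, 67 and 46 against 3, 4 and 0. Rps6ka1, a ribosomal S6 kinase gene, had sites at both of its covered promoters, with concentrations of 4.65 and 4.12, and its other 4 sites had a mean of 5.95. No WT library overlapped a UTX-deficient library at these sites.

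Over the 26 genes with both kinds of site, the promoter was neither regularly stronger nor regularly weaker. The promoter site was higher than the mean of the other sites in 14 of 26 genes, in all 3 WT libraries in 10, and lower in all 3 in 9. The median difference was 0.10 on the log2 scale, and in the single WT libraries it was 0.14, -0.05 and 0.08. The promoter site was the strongest of its gene in 7 of the 26. Besides Tpst2, Klf13 and Runx3 these were Yy1, Chaserr, Ccnd3 and Spsb1, named after their values had been seen, with promoter sites at 6.55, 6.36, 6.06 and 5.90.

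Of the 27 promoters with a listed sequence under a site, 19 held the KLF/SP motif (70.4%), against 80.3% of 2457 promoters under the site of genes with 1 site and 35.7% of all 32851 listed promoters. The ETS motif was in 2 of the 27 (7.41%), against 33.1% of the promoters in genes with 1 site and 14.9% of all. The TCF/LEF and RUNX motifs were each in 6 of the 27 (22.2%), against 18.7% and 16.8% of all listed promoters and 10.1% and 11.7% of those in genes with 1 site. The AP-1 motif was in 1 (3.70%), against 7.81% of all and 3.46% in genes with 1 site. The median number of CG pairs was 24 in both sets under a site and 7 in all promoters. These are matches of letters in a 300-base window, with no test. The whole window was searched even where the site covered few of its bases, as at Ppp2r5c (3), Septin9 (55) and Yy1 (70). Ppp2r5c was 1 of the 2 with the ETS motif.

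The 2 genes with the most sites encode transcription factors. Bach2, a repressor of effector differentiation, had 10 sites over 439.4 kb, with a concentration of 3.92 to 6.65 in WT. Its strongest site, inside the gene and 105.6 kb from its nearer end, held 127, 93 and 80 WT reads and, without UTX, 10, 23 and 0. This was 100.6 ± 1.14 normalized reads in WT (SD, n = 3), against 15.2 ± 4.41 at the weakest. The weakest Bach2 site, 2.3 kb downstream of the gene, held 23, 16 and 8 against 2, 2 and 0. Foxp1, a forkhead factor of quiescence, had 8 sites over 382.7 kb, 7 of them inside the gene. All of its sites were modest, from 4.02 to 5.35, and neither its strongest nor its weakest site was the same in all 3 WT libraries. The Foxp1 site with the highest group value held 39, 54 and 26 WT reads and, without UTX, 3, 4 and 0.

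Lef1, which encodes a partner of TCF-1 that binds the same motif, had 7 sites over 244.0 kb. Of these, 4 lay upstream, up to 162.9 kb from the gene, and 3 inside. The strongest Lef1 site, within the gene, held 151, 82 and 71 WT reads and, without UTX, 16, 22 and 0, and the weakest held 20, 19 and 15 against 2, 5 and 0. Klf13 had 7 sites over 117.9 kb, of which 4 lay upstream, from 35.5 to 104.2 kb away. The most remote Klf13 site held 53, 38 and 24 WT reads and, without UTX, 2, 4 and 0. The most remote site of Lef1 held 50, 31 and 22 WT reads, and 2, 2 and 0 without UTX.

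Ago2, the slicing Argonaute of RNA silencing, and Galnt2, an enzyme that starts O-linked glycans, had 7 sites each, all of them overlapping the gene. The last Ago2 site lay over a gene end, with its middle 0.2 kb from that end. The Ago2 sites spanned 67.6 kb with concentrations from 4.35 to 6.20, and the strongest held 100, 72 and 50 WT reads and, without UTX, 2, 6 and 0. The Galnt2 sites spanned 77.8 kb with concentrations from 4.65 to 7.06, and the strongest held 165, 135 and 99 reads against 5, 18 and 0. The remaining gene with 7 sites, Rplp1, differed in layout. None of its sites overlapped the gene, 6 of them lay 122.1 to 244.4 kb away, and the nearest, 0.3 kb from a gene end, held 47, 53 and 38 WT reads and, without UTX, 1, 3 and 0. The assignment of the remote sites to Rplp1 is that of the authors' deposited table.

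**Figure D2:**
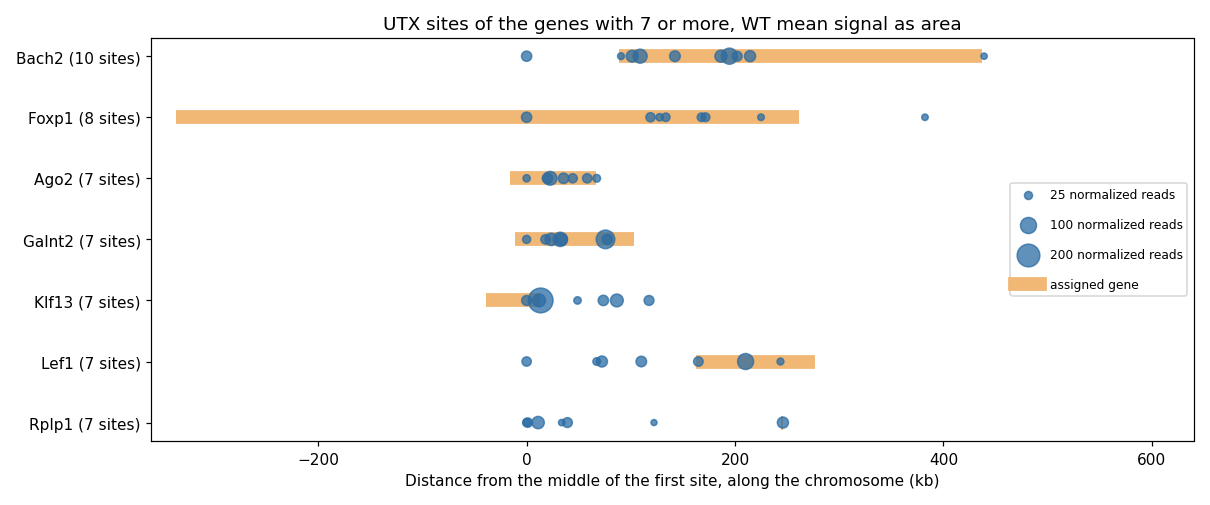
The 7 genes with 7 or more UTX sites. The x axis is the distance along the chromosome from the middle of the first site (kb), bars are the assigned genes, and each circle is a site with an area proportional to its mean normalized reads over the 3 WT libraries. All sites of Ago2 and Galnt2 overlap the gene, and Lef1 and Klf13 have 4 upstream sites each. The strongest Klf13 site, with a mean of 237.3, is at its promoter.

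Members of the TGF-beta pathway made up 3 of the 18 genes with 6 sites, from a list of 13 genes of which 10 had a site at all. Smad3, Smad7, an inhibitor of the pathway, and Ski, a repressor of SMAD proteins, had sites over 53.0, 59.5 and 61.1 kb. At Ski the strongest site, 0.8 kb upstream of the gene, held 164, 133 and 106 WT reads and, without UTX, 6, 13 and 0. At Smad7 the strongest held 103, 99 and 77 against 2, 9 and 0. Of the progenitor or stem-like list, 5 of 25 genes had 5 or more sites (Bach2, Foxp1, Lef1, Ccr7 and S1pr1) and 21 had at least 1, while over all genes with a site 1.03% had 5 or more. The 1.03% is over genes with a site, so its match in each list is the number with at least 1 site, not the whole list. The numbers with at least 1 site were not set against a share over all genes. The lists were written with earlier results of these data known, so their counts are no independent evidence.

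The homing receptor gene Ccr7 and the egress receptor gene S1pr1 are short, at 10.9 and 4.6 kb, and each had 1 of its 6 sites on the gene itself. The strongest Ccr7 site, 8.3 kb from the gene, held 150, 131 and 103 WT reads and, without UTX, 5, 21 and 0. The strongest S1pr1 site lay 27.5 kb from the gene and held 84, 66 and 52 reads against 5, 11 and 0. The S1pr1 sites reached up to 84.4 kb from the gene, and those of Ccr7 up to 16.1 kb.

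Of the effector, cytotoxic or exhaustion list, 3 of 26 genes had 5 sites each and 14 had at least 1, beside the 1.03% of all genes with a site that had 5 or more. All sites of Fasl, the death ligand gene, lay outside it, 4 downstream and 1 upstream, and the strongest held 118, 92 and 76 WT reads and, without UTX, 4, 6 and 0. Nr4a1, an orphan nuclear receptor gene induced by receptor signalling, had 5 sites within 26.2 kb, and the strongest, 4.8 kb from a gene end and inside the gene, held 207, 157 and 108 reads against 6, 10 and 0. Nr4a1 had a site over its 5′ end, with a concentration of 6.03, and one over a listed promoter inside the gene, with 6.60. The third of these genes was Runx3.

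Of the T cell receptor list, 2 of 40 genes had 5 or more sites and 35 had at least 1. Over all genes with a site, 1.03% had 5 or more. Prkcq, which encodes the kinase PKC-theta, had 5 sites, all inside the gene, and Ets1, an ETS factor gene, had 6. Gm27162, a long noncoding RNA gene, had 6 sites that began 158.5 kb beyond the last Ets1 site on chromosome 9, and no other pair of the 54 genes lay within 500 kb of each other by the span of their sites. The strongest Gm27162 site held 151, 122 and 106 WT reads and, without UTX, 17, 24 and 0, while the strongest Ets1 site held 60, 50 and 26 against 0, 4 and 0.

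The cytokine genes Il6st, which encodes the shared receptor chain gp130, and Jak1 were 2 of 23 on their list with 5 sites. All Il6st sites lay upstream of the gene within 20.6 kb of each other, and the strongest, 39.2 kb from the gene, held 74, 78 and 48 WT reads and, without UTX, 3, 13 and 0. From the remaining lists came Chd7, a chromatin remodeller gene (1 of 35 chromatin regulators), Prex1, an activator of Rac GTPases (1 of 26 GTPase, adhesion and cytoskeleton genes), Ago2 (1 of 23 RNA silencing and decay genes) and Galnt2 (1 of 16 glycosylation genes). The list of Kruppel-like, Ikaros, ETS and forkhead factors gave 3 of 25, Klf13, Ets1 and Foxp1. In the order given here, 21, 31, 19, 20, 10 and 23 genes of these lists had at least 1 site. Over all genes with a site, 1.03% had 5 or more. The strongest Prex1 site, 12.1 kb inside the gene, held 197, 138 and 108 WT reads and, without UTX, 9, 10 and 0, and the strongest Chd7 site held 44, 48 and 31 against 3, 8 and 0.

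Among the genes on no list, 6 sites each were assigned to 4933406K04Rik, Arhgef3, Bicdl1, Ccnd3, Hivep2, Irf2bpl, Itpkb, Ninj2, Prkch, Rps6ka1 and Slc38a2. These include Ccnd3, a cyclin of the G1 phase, Itpkb, an inositol phosphate kinase of lymphocytes, and Prkch, which encodes a protein kinase C. The genes with 5 sites on no list were 1600002D24Rik, B3gnt2, Chaserr, Fos, Gm4668, Gm9530, Gtf2i, Mideas, Mirt1, Ppm1h, Ppp2r5c, Rapgef4, Rgs10, Rnf157, Sema4d, Septin9, Sgms1, Spsb1, Tnfrsf1b, Tpst2 and Yy1. In all, 47 of the 54 genes code for protein and 7 are long noncoding RNA genes. They lay on 19 chromosomes, with 8 on chromosome 4, 7 on chromosome 12, 1 on chromosome 18 and 0 on chromosome X.

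The sites of a gene were spread over 18.8 to 439.4 kb, with a median span of 96.9 kb. The longest spans were those of Bach2, Foxp1 and B3gnt2, a glycosyltransferase gene with 5 sites over 289.1 kb. The shortest were those of Rgs10, a regulator of G protein signalling (18.8 kb), Il6st and Nr4a1. On the deposited coordinates (mm10), the Bach2 sites reached from 32149152 to 32588594 on chromosome 4, those of B3gnt2 from 22692968 to 22982112 on chromosome 11 and those of Rgs10 from 128374215 to 128393053 on chromosome 7. The span was shorter than the gene in 25 of the 54. Every site overlapped the gene in 13 (Ago2, Arhgef3, Galnt2, Hivep2, Itpkb, Jak1, Ppm1h, Prex1, Prkch, Prkcq, Rgs10, Septin9 and Sgms1). No site did so in 7 (4933406K04Rik, Chaserr, Fasl, Fos, Gm9530, Il6st and Rplp1).

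Of 252 gaps between the middles of neighbouring sites, 13 were at most 1500 bp and 125 at most 12500 bp. In 4 genes each gap was at most 12500 bp, and these were Il6st, Nr4a1, Rgs10 and Tpst2, named after their values had been seen. Another coding gene lay within the span in 6 cases: Eif4e3 at Foxp1, Bysl at Ccnd3, Commd1 and Zrsr1 at B3gnt2, Gm52008 at 4933406K04Rik, Gm34296 at Rps6ka1, and Gm31513 and Gm46319 at Mideas. The sites of 4933406K04Rik lay up to 468.1 kb from that gene, the longest distance among the 54. At 128 of 238 sites the nearest listed start of any gene, predicted genes included, was that of the assigned gene. This count was not set beside one for other genes.

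Within a gene the SD of WT concentration had a median of 0.71 (log2) over the 54 genes, with a range from 0.28 to 1.23, and in the single WT libraries the median was 0.71, 0.73 and 0.72. The SD of 1 site between the 3 WT libraries had a median of 0.22, and in 52 of the 54 genes the SD between sites exceeded the median SD between libraries. The exceptions were Prkcq (0.28 against 0.37) and 4933406K04Rik (0.32 against 0.37). The first SD of each pair is between group means and the second between single libraries. In genes with 2, 3 and 4 sites the median SD between sites was 0.53, 0.60 and 0.73.

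**Figure D3:**
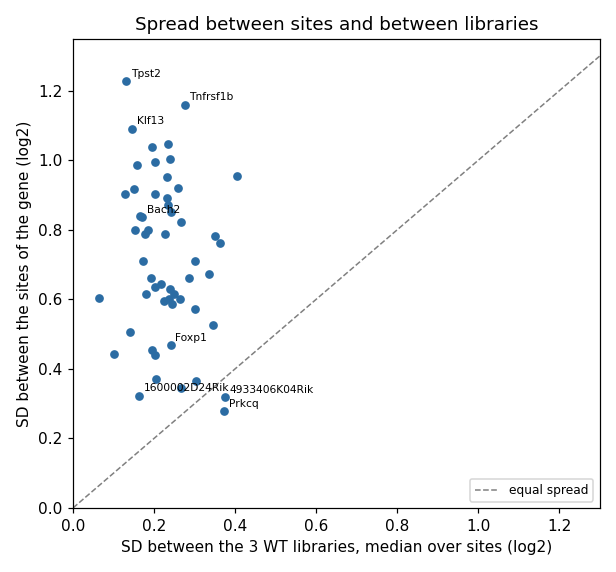
Each point is 1 of the 54 genes. The x axis is the SD of log2 normalized reads between the 3 WT libraries (median over the sites of the gene), and the y axis is the SD of WT concentration between the sites of the gene (log2). Points above the dashed line of equal spread, 52 of 54, have more spread between sites than between libraries.

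The strongest site of a gene held 1.61 to 11.2 times the signal of the weakest, with a median of 3.95, and the median was 4.04, 3.91 and 3.47 in the deepest, middle and shallowest WT library. These extremes were picked from the values themselves, so the ratio is a description. The same site was strongest in all 3 WT libraries in 44 of 54 genes, the same was weakest in 30, and the whole order was the same in 8. The widest SD belonged to Tpst2 (1.23), Tnfrsf1b (1.16) and Klf13 (1.09). At Tnfrsf1b, a receptor gene for TNF, the strongest site held 159, 132 and 76 WT reads and, without UTX, 6, 8 and 0, and the weakest held 16, 13 and 12 against 3, 1 and 0. Neither of these Tnfrsf1b sites was at a promoter, and both lay inside the gene.

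The most even genes were Prkcq, 4933406K04Rik and 1600002D24Rik, with SDs of 0.28, 0.32 and 0.32. At Prkcq the strongest site held 32, 39 and 27 WT reads and, without UTX, 0, 4 and 0, and the weakest held 28, 17 and 18 against 1, 2 and 0. By mean concentration Gtf2i (6.43), Fos (6.29) and Nr4a1 (6.10) were highest and Rnf157 (4.44), 1600002D24Rik (4.53) and Prkcq (4.63) lowest. Gtf2i encodes the general factor TFII-I, and its strongest site held 212, 193 and 127 WT reads and, without UTX, 5, 13 and 0. At Fos, an AP-1 subunit gene, the strongest site lay 18.5 kb upstream and held 235, 164 and 119 reads against 13, 31 and 0, while the promoter site held 86, 83 and 51 against 3, 4 and 0.

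**Figure D4:**
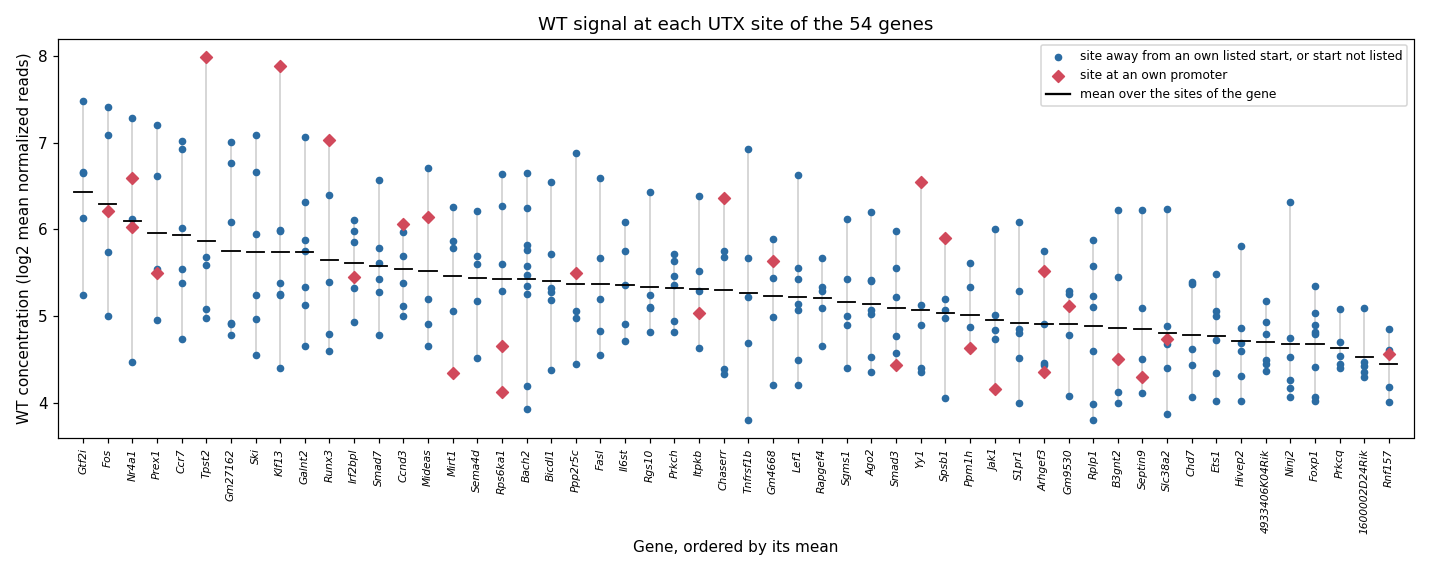
WT concentration (y axis, log2 of mean normalized reads) at each of the 306 sites, by gene (x axis, ordered by the mean, drawn as a black line). Red diamonds are sites at an own promoter. Blue circles are all other sites, including every site of the genes with no listed start, which may or may not lie at a promoter. The diamonds stand at the top for Tpst2 (7.99) and Klf13 (7.89) and at the bottom for Jak1 (4.15).

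The sites of the 54 genes had a median WT concentration of 5.15, against 4.86, 5.04, 5.08 and 5.17 in genes with 1, 2, 3 and 4 sites and 4.94 over all sites higher in WT, which is above genes with 1 site and close to genes with 4. The difference from genes with 1 site was 0.30, 0.34 and 0.30 in the deepest, middle and shallowest WT library, and was not tested over sites or genes. Among sites off an own promoter the medians were 5.09 (209 sites) and 4.84 (955 sites), and among sites at an own promoter 5.50 (29 sites) and 4.88 (2506 sites). At the threshold of the rule, the 29 genes with 5 sites had a median concentration of 5.11 and a median SD of 0.76, and the 59 genes with 4 sites had 5.17 and 0.73.

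Each of the 306 sites had less signal without UTX, as the rule requires. In the authors' deposited table all 306 had an FDR under 0.05, in a table where 99.7% of sites were called higher in WT. Each WT library lay above both well-covered UTX-deficient libraries at all 306 sites, as at 99.7% of the sites in the table. With libraries scaled by their reads in the sites, limma called 8 of the 306 lower, where 4.01% of all sites were called. This scaling gives every library the same total over sites nearly all higher in WT, so it cannot measure a loss they share. Summed over the sites, the deepest and the middle UTX-deficient library held 3.08% and 10.2% of the mean WT signal, against 2.84% and 8.79% in genes with 1 site. The UTX-deficient libraries thus differed from each other more than the 54 genes differed from genes with 1 site. By gene the remaining share ranged from 1.01% to 6.87% in the deepest library, highest at Ets1 and lowest at Rps6ka1, and from 4.30% to 20.7% in the middle one, highest at Gm4668 and lowest at Bicdl1.

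The median log2 fold in the authors' deposited table was -3.48 at these sites and -3.47 at those of genes with 1 site, and it ranged from -6.36 to -1.94. The smallest decrease was at the Foxp1 site upstream of the gene, with 21, 19 and 9 WT reads and, without UTX, 5, 3 and 0. Neither well-covered UTX-deficient library held a read at 4 sites, of Arhgef3, Bicdl1, Rps6ka1 and Rnf157, so the fitted fold there is no bound. The Rnf157 site among them held 39, 26 and 22 reads in WT. The Yy1 promoter, at a gene of a zinc finger factor of chromatin looping, held 115, 87 and 76 WT reads and, without UTX, 1, 4 and 0, and the fold, from the authors' deposited table, was -5.29 (log2).

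**Figure D5:**
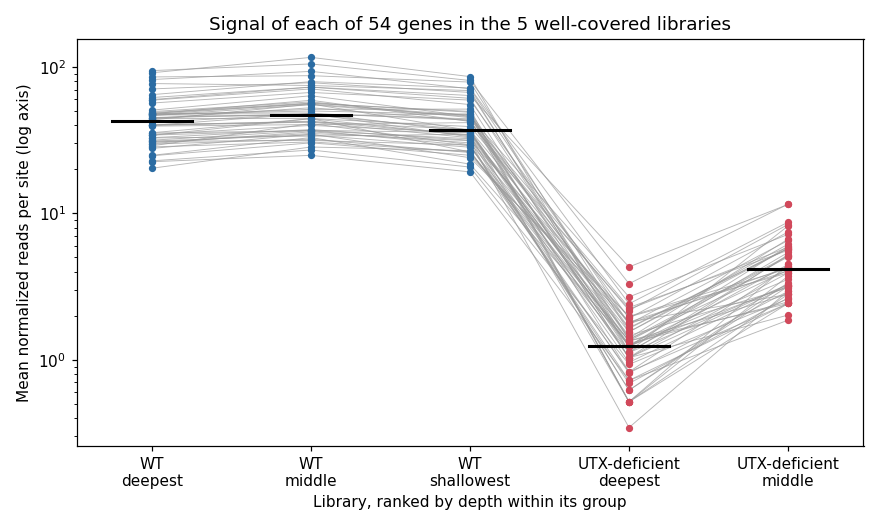
Mean normalized reads per site (y axis, log scale) of each of the 54 genes in the 5 well-covered libraries (x axis). Points are genes, grey lines join a gene across libraries, and black bars are medians. The WT medians were 42.7, 46.8 and 37.2, the UTX-deficient medians 1.24 and 4.15, and the highest UTX-deficient value, 11.6, was below the lowest WT value, 19.2.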

How the data were processed

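UTX CUT&Tag was deposited for 3 WT and 3 UTX-deficient samples. The submitters' processing notes name mm10 as the build and, with neither role nor version, DiffBind, MACS2, Picard, SAMtools, Bowtie2, cutadapt and FastQC. The protocol names an IgG control, which was not analysed here. Per the file headers, the authors' deposited table is a DiffBind report: concentrations and the fold are log2 values of mean normalized reads per group, with 0 as the lowest concentration. The p-value and FDR are the authors' deposited ones, and the deposited table holds sites with FDR under 0.05, so sites that did not differ are not counted. The sources used here do not say if peak calling pooled the samples.

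Reads per library were recovered from the group means, each being a sum of whole reads times the worth of 1 read (from the deepest library to the shallowest, 0.782, 1.09 and 1.26 normalized reads for WT, then 0.517, 0.932 and 173.2 for UTX-deficient). WT sums had exactly 1 solution at 6735 of 6739 sites and UTX-deficient sums at 6728. At 11 sites with several, which hold reads of the near-empty library and are none of the 306, the solution with the fewest other reads was taken. All 306 sites were solved. The recovery was also run on simulated data, as was limma 3.58.1 in R 4.3.3, and the outcomes are not given here. The limma fit used log2 normalized reads plus a pseudocount of 1 over 6735 sites with Benjamini-Hochberg adjustment. The protocol names no molecular identifiers, so reads may repeat a molecule.

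Symbols, gene ends and starts came from RefSeq tables of GRCm38.p6, in which all 54 genes matched and 43 had a listed start. No genome sequence was used. Named genes were those with 7 or more sites, the 3 highest and 3 lowest by SD, span and mean concentration, and all members of the lists (10 gene lists and 6 of cell type markers). Other genes given with values, such as Yy1, Gm27162, Rps6ka1, Ccnd3, Chaserr and Spsb1, were chosen after their values were seen. The members, lists and comparisons were chosen with earlier results of these data known. Alternatives were other thresholds, merged sites, nearer sites, left-out libraries and limma settings.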

Additional observations from a re-analysis of the deposited data

How the results depend on the processing

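The number of genes depended on the threshold and on the assignment of distant sites. It was 113 with 4 or more sites and 25 with 6 or more, 24 with sites that overlap the gene or lie within 10 kb of it, and 19 with sites that overlap it, against 54. All 24 and all 19 were among the 54, and Lef1, Klf13, Ccr7 and S1pr1 were among those lost. At FDR under 0.01 it was 47, and 50 with sites within 1500 bp merged. With sites within 10 kb the median span was 49.7 kb, over the 52 genes with such a site. The median SD within a gene was 0.67 at FDR under 0.01 and 0.73 with sites merged, and from 0.70 to 0.76 with 1 WT library left out. The median range was 1.98 and the interquartile range 0.62. The difference in level from genes with 1 site was 0.42 by gene means, 0.31 with sites within 10 kb and 0.25 off an own promoter, the last chosen after seeing the data. The direction at the 306 sites is fixed by the rule. By limma all 306 were called lower in UTX-deficient cells with all 6 libraries, as were 99.7% of all sites, and at pseudocounts of 0.5 and 4 and with each library left out. With libraries scaled by their reads in the sites, 8 of the 306 were called, against 4.01% of all sites, while 305 had a lower value and the median difference was -1.51 (log2). This scaling gives each library the same total over all sites, of which 99.7% were called lower without UTX. It thus evens out a shared loss by design and cannot measure it. The near-empty library, with 0 reads at each of the 306 sites, stayed in this fit at the lowest value. Its part in the median difference was not tested. No paired analysis was possible because the recovered libraries carry no replicate number.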
